A study of Mus musculus with 3 samples.

Results

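The comparison of AtmsKO with WT long-term hematopoietic stem cells (LT-HSCs) was examined among bright genes, those whose signal was high enough to be read well on an expression array. Bright genes were selected on the measured signal. An array feature (1 probe sequence) was kept if its processed signal reached 500 intensity units on at least 1 of the WT and AtmsKO arrays and it was well above background on both. This left 5043 of 56605 features, which read 4363 of 36995 genes. Each gene was represented by its brightest kept feature, called its brightest probe, and the gene's other features, called its other probes, were used as a second reading of the same RNA. The signal that chose the genes is the signal that was compared, so every value below describes these arrays.

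The cells came from the bone marrow of C57BL/6J mice that were 11 weeks old per the labels. Per the series text, CAG-CreERT2::Atm flox/flox mice received tamoxifen at about 5 weeks of age and were analysed 4 weeks later with controls. These times do not add up to the 11 weeks of the labels, so the time from tamoxifen to analysis is uncertain. In AtmsKO mice the CAG promoter, which is active in nearly all cell types, drives CreERT2, so the design does not limit the deletion of Atm to blood cells. WT mice are labelled wild-type, and per the methods controls also received tamoxifen but lacked the Cre transgene, so the transgene and the loss of Atm cannot be told apart in this comparison. LT-HSCs were sorted as CD150+CD48-Flt3-CD34- LSK cells (no lineage antigens, with Sca-1 and c-Kit on the surface), to which the methods add CD41-. The methods used both sexes, and how many mice were pooled for each array is not given. Each genotype had 1 array, so no difference can be set against a spread between mice and no test was made. A further array, labelled Atmp38dKO for a deletion of Atm and of the p38α gene Mapk14, is given beside some values and shares the WT array with this comparison. Its readings of both genes, given below, go with that label only in part, so it is called by its label throughout.

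ATM is the kinase that signals DNA double-strand breaks to p53 and to the cell cycle checkpoints. From mice with germ line loss, it is known to limit reactive oxygen species in blood stem cells. Stem cells without it lose the capacity to repopulate the marrow over time. After the inducible deletion used here, the study reported reactive oxygen species in HSCs comparable with controls. LT-HSCs divide rarely, sit at the top of the blood lineages and respond to stress through kinase cascades, heat shock factors and immediate early transcription factors.

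The 3 arrays shared 1 slide and 1 scan. Between 68.9% and 77.7% of features were well above background on an array, and 8.36% to 9.49% reached 500 units. No feature was saturated. Levels are log2 of the signal minus the array's own 75th percentile, which was 102 units for WT and 96.2 for AtmsKO. Some bright features were printed 10 times on each array, and their median SD between spots was 0.05 log2 units for WT and 0.051 for AtmsKO, which covers error within an array only. In bulk RNA, fewer cells of a type and less RNA per cell cannot be told apart.

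Atm was read by 2 probes, neither bright. Its signal was 88.8 in WT and 16.3 in AtmsKO at one probe, and 87.0 and 23.9 at the other, 5.17-fold and 3.46-fold lower after scaling. On the array labelled Atmp38dKO the same probes read 49 and 86.5 units (-1.07 and -0.22 against WT). Of the p38 genes only Mapk14 was bright, with 469 units in WT and 558 in AtmsKO at its brightest probe (a log2 difference of 0.33) and 295 and 260 at its other probe (-0.10). Mapk14 was not lower than WT on the array labelled Atmp38dKO, where it read 616 and 345 units (0.18 and 0.01 against WT). Mapk13 read 38.7 and 37.5 units. Mapk11 read 13 and 22.9 units, and the 2 probes of Mapk12 that were well above background on both arrays differed by -0.97 and 0.29 log2 units at signals of at most 22.9.

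The stem cell label was checked against defining genes. All 14 LT-HSC markers were well above background on both arrays, and 8 of them were bright. The transcription factor gene Gata2 read 6179 units in WT and 6291 in AtmsKO, and the stem cell factor receptor gene Kit 2652 and 2773. The summed signal of the 14 markers was 16037 and 15359, not scaled between arrays, whose 75th percentiles were 102 and 96.2. Among genes used to sort cells out, Cd48 read 17.2 and 21.2 units and Flt3 79.4 and 70.3. Cd34 read 1694 and 1666 units although CD34- cells were sorted, and Itgam, which encodes the myeloid lineage antigen CD11b, read 33134 and 32383 at its brightest probe but 35.9 and 43.9 at its other probe. The differences at these brightest probes were 0.05 for Cd34 and 0.04 for Itgam on the log2 scale.

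Most bright genes had nearly the same relative level on both arrays. The median log2 difference over 4363 bright genes, AtmsKO minus WT, was 0.03, with quartiles at -0.09 and 0.16. Of these genes, 4246 (97.3%) differed less than 1.5-fold, and 2504 (57.4%) were above 0. At least 2-fold higher in AtmsKO were 9 genes (0.206%) and at least 2-fold lower 10 genes (0.229%). At 1.5-fold the counts were 57 higher (1.31%) and 60 lower (1.38%), so the counts in both directions were close. The plot of the difference against signal shows the band of differences narrowing as signal grows.

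**Figure D1:**
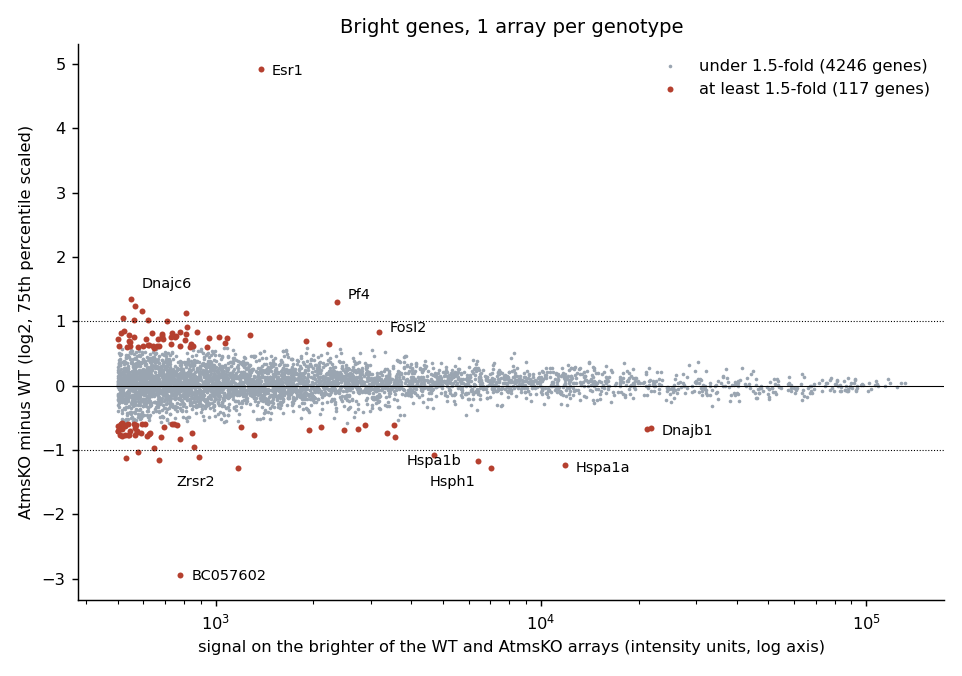
Log2 difference, AtmsKO minus WT, of the 4363 bright genes (vertical axis, scaled to each array's 75th percentile) against the signal on the brighter of the arrays (horizontal log axis, intensity units). Red points are the 117 genes at least 1.5-fold apart, dotted lines mark 2-fold, and Esr1 at 4.92 and BC057602 at -2.94 lie far from the rest.

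The share of genes that stood apart varied with signal. Of 21248 dimmer genes that were well above background on both arrays, 731 (3.44%) were at least 2-fold higher and 705 (3.32%) at least 2-fold lower. By feature, the share at least 2-fold apart was 3.59% where the brighter array read under 20 units, 12.2% at 20 to 50 units, 2.16% at 200 to 500 units, 0.602% at 500 to 1000 units and 0.324% at 5000 units and above. The SD of the difference was 0.65 log2 units at 20 to 50 units and 0.16 at 5000 units and above. Features just inside the threshold (500 to 600 units, 617 features) and just outside it (400 to 500 units, 904 features) had the same SD of 0.32, and 8.10% and 8.19% of them were at least 1.5-fold apart. Most genes past a fold threshold lay at the low end of the bright range. Of the 57 genes at least 1.5-fold higher, 48 stayed below 1000 units on both arrays and 16 reached 500 units on both. Of the 60 lower genes, 43 stayed below 1000 units on both arrays and 16 reached 500 on both.

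**Figure D2:**
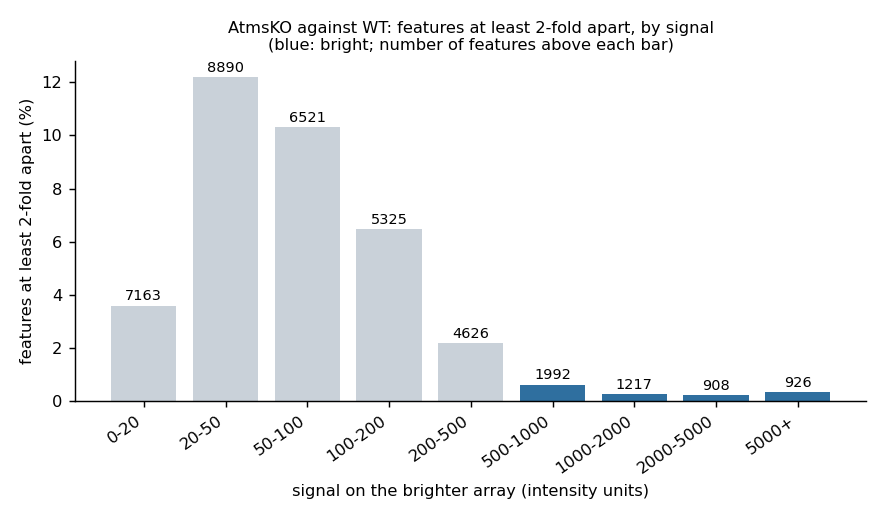
Percent of array features at least 2-fold apart between the AtmsKO and WT arrays (vertical axis) by the signal on the brighter array (horizontal axis, intensity units), for features well above background on both. The bars stand at 3.59% under 20 units, 12.2% at 20 to 50 units, 0.22% at 2000 to 5000 units and 0.324% above, and blue bars hold the bright features.

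The largest difference of all belonged to Esr1, the gene of estrogen receptor alpha. At its brightest probe it read 48.1 units in WT, 1375 in AtmsKO and 857 on the array labelled Atmp38dKO, which made it 30.2-fold higher in AtmsKO than in WT. The gene's other probes did not share this. Of its 6 other probes, 4 were well above background on both arrays, and they differed by 0.50, -0.07, 0.86 and -1.03 log2 units at signals of at most 136 units in WT and AtmsKO. CreERT2 is Cre joined to the ligand-binding domain of estrogen receptor alpha. The bases read by the brightest probe, at chr10:5489352-5489411 of mm9, encode part of that domain in the mouse gene Esr1. The array labelled Atmp38dKO came from mice with the same transgene, and per the methods the controls had none. The bases of the transgene itself were not compared, and whether this probe read the transgene was not tested. The probe sequence is shown because it carries the largest difference among bright genes.
Esr1 brightest probe: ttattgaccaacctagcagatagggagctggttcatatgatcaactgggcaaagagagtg

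The largest lower value came from BC057602, a cDNA entry without a gene symbol that was named here after its value was seen. It read 779 units in WT, 96.2 in AtmsKO and 95.2 on the array labelled Atmp38dKO, and AtmsKO minus WT was -2.94. The deposited annotation gives no genome position for this probe, and no other probe of the entry was on the array. The sequence is printed because it is what identifies the transcript.
BC057602 probe: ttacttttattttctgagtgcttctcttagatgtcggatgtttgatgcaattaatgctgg

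Below these extremes, the 2-fold higher genes encode proteins of unrelated roles. Pf4, the platelet chemokine gene that megakaryocytes and a megakaryocyte-biased part of LT-HSCs express, read 1020 units in WT and 2366 in AtmsKO (2.45-fold higher) and 1536 on the array labelled Atmp38dKO. It was the only one of the 9 genes that reached 500 units on both arrays. Dnajc6, the clathrin uncoating factor auxilin, read 228 and 549 units (2.55-fold higher) at its brightest probe and 187 and 185 at its other probe. Igf2r, the imprinted gene of the receptor that clears IGF2, read 254 and 566 units with 1 probe (2.35-fold higher). The cDNA entry W15861 had no symbol and read 283 and 596.

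Further 2-fold higher genes were close to the threshold. Ibtk, an inhibitor of the B-cell kinase BTK, read 393 and 812 units (2.18-fold higher), and its 3 other probes differed by 0.07, 0.38 and 0.28 log2 units. Itgb1bp1, an integrin adaptor gene with 1 probe, read 266 and 520 (2.06-fold higher). Plk4, the kinase gene that starts centriole duplication, read 294 and 563 (2.02-fold higher), whereas its other probes that were well above background differed by -0.18 and 0.29. Just below 2-fold were the DNA break sensor gene Parp2 at 1.00 (376 and 711 units) and the coatomer gene Arcn1 at 0.92. Parp2 was also higher at its other probe (0.49), whereas those of Arcn1 ranged from -0.16 to 0.19.

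On the lower side, 3 of the 10 genes were heat shock genes and are described further on. Zrsr2, a gene of the minor spliceosome, read 1169 units in WT, 457 in AtmsKO (2.42-fold lower) and 1146 on the array labelled Atmp38dKO. Its 3 other probes differed by 0.75, -2.66 and -0.05 log2 units at signals of at most 44.5 units, so they did not give 1 direction. Gprasp2, which encodes a sorting protein of G-protein-coupled receptors, read 670 and 284 (2.23-fold lower) and was lower at its other probe too (-0.44). Gimap6, a small GTPase gene of lymphocytes and stem cells, read 888 and 391 (2.15-fold lower) with 1 probe.

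The remaining lower genes again lay near the threshold. Alg11, a mannosyltransferase gene of protein glycosylation, read 529 and 229 units (2.19-fold lower), and Spaca6, a gene known from sperm and egg fusion, read 578 and 269 (2.04-fold lower). A probe without a gene name in the deposited annotation read 4700 and 2111 units (2.11-fold lower). Spred2, an inhibitor of Ras to ERK signaling, was at -0.97 at its brightest probe (646 and 313 units) and at 0.71 at the other probe that was well above background on both arrays. The pseudogene Tmem181b-ps was at -0.95 (860 and 421 units, and 1199 on the array labelled Atmp38dKO), and since it resembles its parent genes closely its value is uncertain.

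Second probes of the same gene showed how far a single probe could be relied on. Of the 19 genes at least 2-fold apart, 9 had at least 1 other probe that both arrays read well above background, 18 in all, and 14 of the 18 (77.8%) differed in the direction of the brightest probe. A difference of at least 1.5-fold in that direction was seen at 5 of the 18 (27.8%). For genes 1.5-fold to 2-fold apart, 64 of 99 other probes (64.6%) had the same direction, and for genes under 1.2-fold apart 1446 of 2675 (54.1%). The other probes were mostly dimmer. Where the other probe was bright too, 460 of 680 (67.6%) had the same direction, and this was 91 of 108 (84.3%) for genes 1.2-fold to 1.5-fold apart. Across these 680 pairs the differences correlated with a Pearson r of 0.44, and across all 3464 pairs with 0.08. Genes are not independent replicates, the paired probes share the same RNA and labelling on the same arrays, and 61 of the 680 pairs overlap in the genome.

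**Figure D3:**
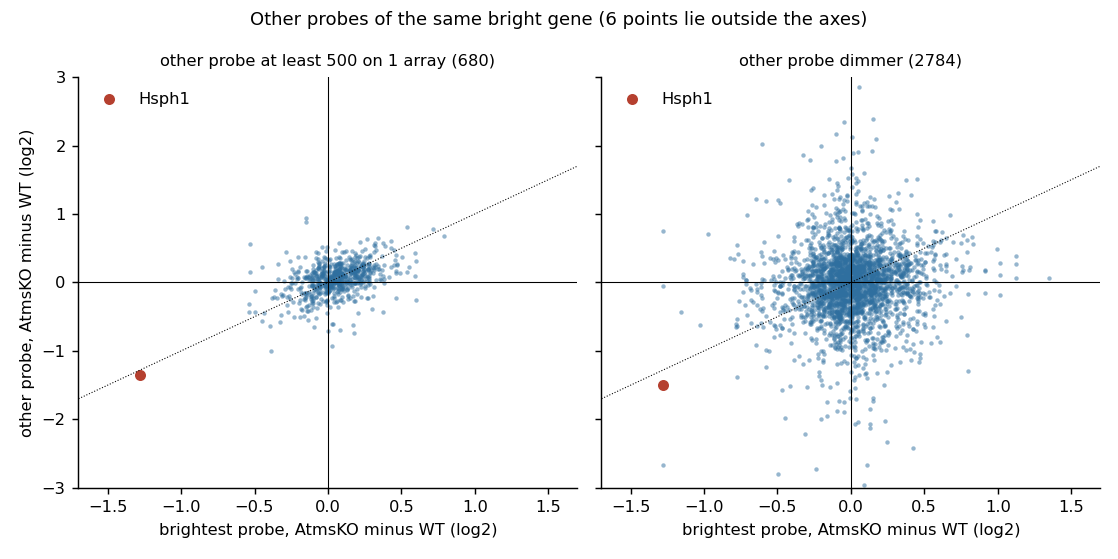
Log2 difference, AtmsKO minus WT, at other probes of a bright gene (vertical axis) against that at its brightest probe (horizontal axis), for 680 other probes that were bright too (left) and 2784 that were dimmer (right), each well above background on both arrays. The dotted line marks equal differences, red points are Hsph1, and 6 points lie outside the axes.

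Of 1965 bright genes with a symbol and at least 1 other probe well above background, 849 had all such probes on the same side of 0. In 8 of these every such probe was at least 1.5-fold apart. The 4 higher genes were H2bc21, Fosl2, Adgrl1 and Obi1, and the 4 lower included Hsph1, Spaca6 and Sec24b. Fosl2 is a Fos-family transcription factor gene. Its signal was 1894 in WT, 3185 in AtmsKO and 1495 on the array labelled Atmp38dKO at the brightest probe, and 301, 454 and 285 at the other, so AtmsKO was the highest of the arrays at both. H2bc21 encodes a histone H2B that is made outside S phase as well. It read 442 and 689 units at one probe and 374 and 607 at the other, but H2B genes are alike enough that cross-hybridization cannot be told apart from its own signal. Adgrl1, an adhesion receptor gene, read 374 and 545 units (1.53-fold higher), and Obi1, a ubiquitin ligase gene of replication origins, read 462 and 668 (1.53-fold higher).

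Among the lower genes with concordant probes, Sec24b, a coat protein gene of vesicles that leave the endoplasmic reticulum, read 617 units in WT, 340 in AtmsKO and 585 on the array labelled Atmp38dKO. All 3 of its probes were lower in AtmsKO, at -0.78, -0.61 and -0.65. The next in rank were Gm30948 and Rxrb on the lower side and Malsu1 and Ifi27 on the higher side, whose smaller differences were -0.56, -0.52, 0.58 and 0.58. Rxrb encodes a retinoid X receptor that pairs with many nuclear receptors, and Malsu1 a factor of mitochondrial ribosome assembly.

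Of the 38 gene lists examined, that of heat shock proteins and chaperones had the most members at least 1.5-fold lower in AtmsKO. Chaperones fold new or damaged proteins, and their inducible members are switched on within minutes of stress by heat shock factor 1, which binds inverted repeats of the bases GAA near the start of the gene. Of its 41 genes, 33 were bright, and 5 of these were at least 1.5-fold lower in AtmsKO (15.2%, against 1.38% of all bright genes). None was 1.5-fold higher. The 5 lower genes include the near-identical Hspa1a and Hspa1b, which count as 1 observation. The list's median was -0.11, with 21 members below 0 and 12 above, so the lower values belonged to a part of the list.

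Hsph1, the gene of the HSP110 chaperone that recharges HSP70, read 7005 units in WT, 2738 in AtmsKO and 2958 on the array labelled Atmp38dKO at its brightest probe (2.42-fold lower). Its other probes read 1724, 638 and 547 units, and 225, 75.4 and 78.4 units. All 3 probes of Hsph1 were therefore lower in AtmsKO, by log2 differences of -1.28, -1.36 and -1.50. Hspa1a, an inducible HSP70 gene, read 11889 units in WT, 4782 in AtmsKO and 3383 on the array labelled Atmp38dKO (2.36-fold lower), and its neighbour Hspa1b read 6430, 2691 and 1784 (2.26-fold lower). Hspa1a and Hspa1b are near-identical copies, so each probe may read both and the pair counts as 1 observation.

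The list's cytosolic J-domain genes of the Dnaja and Dnajb families and Bag3, whose products work with HSP70, lay on the same side, unlike the J-domain gene Dnajc6 above. Dnajb1, the main J-domain partner of inducible HSP70, read 21834 units in WT, 13095 in AtmsKO and 10345 on the array labelled Atmp38dKO (1.58-fold lower). Bag3, which releases clients from HSP70, read 566, 338 and 400 units (1.58-fold lower). With Dnaja1 (-0.58), Dnajb4 (-0.54), Dnajb6 (-0.26) and Dnaja2 (-0.14), all 6 bright genes of this role were below 0, a grouping made by hand. The stress-inducible Hsp90aa1 was at -0.40 (2978 and 2145 units), whereas the constitutive Hsp90ab1 was at -0.05 (23084 and 21084 units) and the constitutive HSP70 gene Hspa8 at -0.15 (39504 and 33679 units). The mitochondrial chaperonin pair Hspd1 and Hspe1 was at -0.37 and -0.31.

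Other chaperone groups did not share this as a whole. The 7 bright subunits of the cytosolic chaperonin, which folds actin and tubulin, ranged from 0.00 for Cct4 to 0.55 for Cct7 with a median of 0.20. The 7 chaperones of the endoplasmic reticulum ranged from -0.32 for Dnajb9 to 0.14 for Dnajb11 with a median of -0.02. Among them Hspa5 was also at -0.32 (7543 and 5726 units), so it and Dnajb9 lay near Hspd1 and Hspe1. The HSP70 exchange factor Hspa4 was at 0.38 and the cochaperone Stip1 at 0.44. The plot of chaperone signals shows the WT array to the right of AtmsKO for the inducible genes and close to it for most others.

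**Figure D4:**
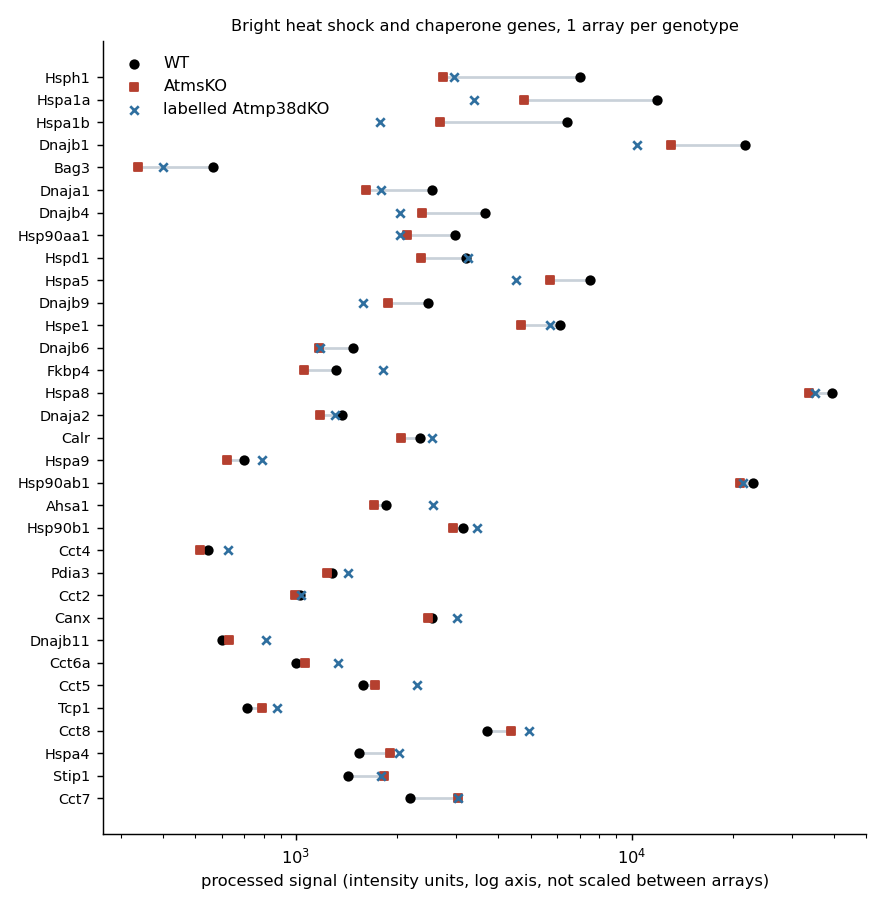
Processed signal (horizontal log axis, intensity units, not scaled between arrays) of the 33 bright heat shock and chaperone genes on the WT array (black), the AtmsKO array (red) and the array labelled Atmp38dKO (blue crosses), ordered by the scaled difference AtmsKO minus WT. The grey bar joins WT and AtmsKO, and the longest bars are those of Hsph1, Hspa1a and Hspa1b at the top.

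Promoter sequence was compared as a description. The element GAANNTTC or TTCNNGAA, each of which is its own reverse complement, was searched in windows of 250 bases before to 50 after the RefSeq gene start (GRCm38.p6). Of the 33 bright chaperone genes 28 had a window, and 13 of them held the element (46.4%). Over all 27025 genes with a window it was 4587 (17.0%), and over all 32851 windows 4946 (15.1%). Of the 5 chaperone genes that were at least 1.5-fold lower, the near-identical Hspa1a and Hspa1b, Hsph1 and Bag3 held it and Dnajb1 did not. Chaperone genes that were not lower held it as well, such as Cct2 (0.03), Cct5 (0.20) and Cct6a (0.17). The Hspa1a and Hspa1b windows differed at 4 of 300 bases. The 250 bases before the (most upstream) start of Hspa1a (chr17:34972157-34972406, minus strand) and Hsph1 (chr5:149636337-149636586, minus strand) are shown for the genes with the largest differences, with the element in capitals, 104 to 97 and 33 to 26 bases before the start.
Hspa1a promoter: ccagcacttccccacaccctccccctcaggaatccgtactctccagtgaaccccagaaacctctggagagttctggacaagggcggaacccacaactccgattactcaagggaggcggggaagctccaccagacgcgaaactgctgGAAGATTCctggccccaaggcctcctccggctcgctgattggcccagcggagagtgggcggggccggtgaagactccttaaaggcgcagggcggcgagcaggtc
Hsph1 promoter: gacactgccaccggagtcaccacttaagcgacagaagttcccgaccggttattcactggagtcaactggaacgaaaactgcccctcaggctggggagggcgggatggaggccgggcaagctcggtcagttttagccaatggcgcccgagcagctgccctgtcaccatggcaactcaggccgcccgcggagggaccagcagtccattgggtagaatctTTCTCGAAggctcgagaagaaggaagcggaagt

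Immediate early genes, which growth factors and stress induce without new protein synthesis, were mostly a little lower. Of 28 bright members 21 were below 0 and 7 above (25%, against 57.4% of all bright genes), and the median was -0.15 against 0.03 for all bright genes. Past 1.5-fold were Klf4, a Krüppel-like factor gene that read 3529 units in WT and 2197 in AtmsKO (-0.61), and Fosl2 in the other direction (0.83). Egr1, an early factor linked to stem cell quiescence, read 25186 and 20033 (-0.25). Jun and Fos, the AP-1 subunits, were at -0.34 (3652 and 2740 units) and -0.30 (3323 and 2559 units), whereas Fosb was at -0.07 (60695 and 54723 units). Of 15 bright genes of NF-kB and TNF signaling, 10 were below 0 and none passed 1.5-fold, with a median of -0.10 and the autophagy receptor gene Sqstm1 at -0.23.

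Genes known to rise in ageing HSCs had the lowest median of the 38 lists, -0.28 over 12 bright members, of which 8 were below 0 and none passed 1.5-fold. Of these, Jun, Fos and Egr1 are also immediate early genes, and without them the median of the other 9 was -0.06. These 9 ranged from -0.44 for the keratin gene Krt18 (1183 and 827 units) to 0.20 for the cathepsin gene Ctsb (634 and 689 units). HSC transcription factors were centred at -0.04 (27 bright members, 1 past 1.5-fold, Klf4) and HSC surface and reporter genes at 0.03 (22 bright members). The 1 surface gene past 1.5-fold was the tetraspanin gene Cd37 at 0.60 (653 and 939 units), and its other probes were at 0.31 and -0.26. Jak3, the kinase of common gamma chain receptors, was the 1 of 16 bright cytokine receptor and JAK-STAT genes (median -0.08) past 1.5-fold, at -0.74 (629 and 358 units), whereas its other probes were at 0.09 and -0.14.

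Genes of oxidative phosphorylation were shifted slightly to higher values. Of 60 bright nuclear genes of the respiratory chain, 53 were above 0 (88.3%, against 57.4% of all bright genes), with a median of 0.21 and quartiles at 0.06 and 0.30, but 1 gene passed 1.5-fold (Ndufs7, a complex I subunit gene, 412 and 599 units, 0.62). The median was 0.25 for 26 genes of complex I, 0.24 for 7 of complex III, 0.14 for 10 of complex IV and 0.19 for 13 of complex V, whereas 2 of 3 complex II genes were below 0. Mitochondrially encoded genes did not share this, with a median of -0.02 over 11 genes and COX1 at 51297 and 47268 units, 1.03-fold apart after scaling.

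Proteasome genes lay higher too, with a median of 0.16 over 25 bright subunits, of which 21 were above 0 (84.0%, against 57.4% of all bright genes). The 13 core subunits had a median of 0.27 and the 11 subunits of the regulatory particle 0.06. Psmc4, an ATPase of that particle, was the 1 member past 1.5-fold, at 0.69 (354 and 541 units), with 0.09 at its other probe. Antioxidant and redox genes had a median of 0.14 over 29 bright members, none past 1.5-fold, and ranged from -0.40 for Sesn3 (761 and 549 units) to 0.56 for Glrx3 (466 and 652 units). The mitochondrial superoxide dismutase gene Sod2 read 436 and 592 units (0.52) and the glutathione peroxidase gene Gpx1 36284 and 41422 (0.27). Glycolysis and hypoxia genes had a median of 0.13 over 23 genes, and their members at the ends were Ldhb at -0.50 (794 and 534 units) and Vegfa at 0.54 (641 and 881 units).

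Genes of the pathway that ATM serves showed little difference where they were bright. Of 9 bright genes of the related kinases and checkpoint none passed 1.5-fold. Trp53, the p53 gene, read 1215 and 1165 units (0.02), and the checkpoint kinase gene Chek1 461 and 529 (0.27). The histone variant gene H2ax, whose product ATM phosphorylates at breaks, read 1190 and 1033 (-0.13). The list of p53 targets had 8 bright members of 51 on the array. They include Trp53 itself and Mdm4 (-0.02), which the kinase and checkpoint list also holds. The median of the 8 was 0.00, at which Trp53 and Mdm4 held the middle values. In all, 4 were above 0 and 4 below, from -0.15 to 0.32. Of 6 bright DNA break repair genes, Parp2 alone passed 1.5-fold. The list of p38 pathway and MAP kinase phosphatase genes, which is not limited to phosphatases of p38, had a median of 0.07 over 18 bright members. Dusp10, a p38 phosphatase gene, was lowest at -0.57 (1061 and 679 units). The p38 kinase gene Map2k3 was highest at 0.40 (1091 and 1364 units).

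Proliferation genes had a median of 0.09 over 28 bright members. Apart from Plk4 none passed 1.5-fold, and the mitotic genes Top2a (581 and 757 units, 0.46) and Ube2c (521 and 702 units, 0.51) lay opposite the cyclin gene Ccnd2 (918 and 602 units, -0.53). The list of CDK inhibitors and retinoblastoma family genes was centred at 0.05 (11 bright), but no retinoblastoma family gene was among the bright members. Its bright CDK inhibitors were Cdkn1b (511 and 561 units, 0.21) and Cdkn2d, which read 2926 units on both arrays. The others included cyclin and CDK genes such as Ccnd2 and Cdk4, which the proliferation list also holds. Cytoplasmic ribosomal protein genes, of which 79 of 81 were bright, ranged from -0.06 to 0.39 with a median of 0.08. Of the 79, 71 (89.9%) were above 0, a larger share than in the respiratory chain (88.3%) or proteasome (84.0%) lists. Translation factors (35 bright) were centred at 0.05, splicing factors (41 bright) at 0.05 with Zrsr2 the 1 gene past 1.5-fold, and reference genes (13 bright) at 0.06, where Gapdh read 9417 and 9394 units. Interferon-stimulated genes had a median of 0.10 over 19 bright members. Ifi27, a mitochondrial interferon-induced gene, was the 1 past 1.5-fold, at 0.70 (1239 and 1903 units) and at 0.58 at its other probe.

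**Figure D5:**
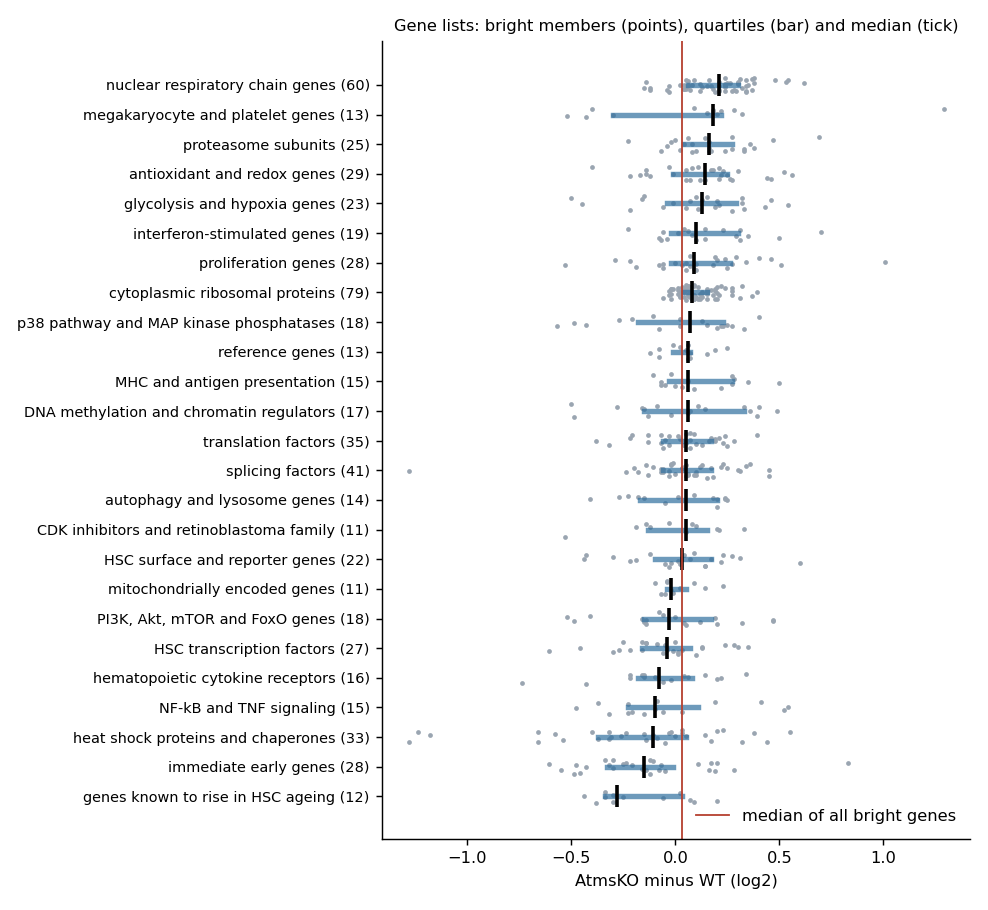
Log2 difference, AtmsKO minus WT (horizontal axis), of the bright members (points) of the 25 gene lists with at least 11 of them, with the number of bright members in brackets, the quartiles (blue bar) and the median (black tick). The red line is the median of all bright genes, 0.03. Medians run from -0.28 for genes known to rise in HSC ageing (-0.06 without Jun, Fos and Egr1, which another list also holds) to 0.21 for nuclear respiratory chain genes.

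Lists with few bright members or near 0 were MHC and antigen presentation (median 0.06 over 15), PI3K, Akt, mTOR and FoxO genes (-0.03 over 18), DNA methylation and chromatin regulators (0.06 over 17), autophagy and lysosome genes (0.05 over 14) and the Bcl2 family (-0.04 over 8). None of these had a member past 1.5-fold. Igf2r was the 1 imprinted gene of 4 past 1.5-fold, and the median of the 4 was 0.02.

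Genes of other blood and marrow cells were mostly too dim to be members. Among megakaryocyte and platelet genes 13 were bright, and Pf4 was the 1 past 1.5-fold. The list's median was 0.18. Of the other 12 genes, 8 were above 0 and 4 below, and they ranged from -0.52 for Gng11 (1340 and 888 units) to 0.32 for Gata1 (513 and 607 units). Of 10 defining granulocyte genes all were well above background and S100a9 was bright (1660 and 1788 units), and their summed signal was 3503 in WT and 3968 in AtmsKO. Summed signals here are likewise not scaled between arrays, whose 75th percentiles were 102 and 96.2. The 8 defining erythroid genes were not bright, with summed signals of 517 and 640, in which Hbb-bt read 137 and 331 units and Hba-a1 88.2 and 51.1. Summed signals were 456 and 376 for 7 B-cell genes, 210 and 174 for 6 endothelial and stromal genes and 38.1 and 37.2 for 5 mast cell and basophil genes. They were 256 and 274 for 4 T and NK cell genes and 5891 and 5336 for 5 macrophage and dendritic cell genes. In the last sum, Siglech gave 3238 and 3177 units at its brightest probe. Its other probes read 5.98 and 4.88 units in WT and were well above background on neither of the WT and AtmsKO arrays. In the longer lists of these lineages, 6 granulocyte genes were bright with a median of 0.23, 6 erythroid genes with -0.06, 2 genes each of the macrophage and endothelial lists with -0.09 and -0.05, and 1 gene each of the B-lymphoid (0.09), T and NK (-0.06) and mast cell (0.20) lists. None of these passed 1.5-fold. The B-lymphoid gene Cd22 read 1724 and 1739 units at its brightest probe but at most 35.1 at its other probes in WT and AtmsKO. Likewise, the stromal gene Acta2 read 4752 and 4438 units, against at most 22.9 at its other probes. Large gaps between the probes of a gene also occurred in the p38 pathway, redox and chromatin lists, so their medians include such single-probe values. The part of blood and marrow cells other than LT-HSCs in the differences above was not tested.

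Xist, the RNA of the inactive X chromosome, read 2884 units in WT, 1789 in AtmsKO and 1830 on the array labelled Atmp38dKO (-0.61 for AtmsKO against WT). The Y-linked demethylase gene Kdm5d was bright at 1 of its 6 probes with 1106 and 1050 units (0.00), and its other probes read at most 72.7 units on the WT and AtmsKO arrays. Of these, the 2 that were well above background on both arrays read 48.1 and 72.7 units (0.68) and 33.5 and 31.5 units (-0.01). The other Y-linked genes were dim, with Eif2s3y at 116 and 102 units (-0.11), Ddx3y at 55.1 and 70.2 (0.43) and Uty at 37 and 56.6 (0.69). Xist was thus lower in AtmsKO while these Y-linked probes ranged from -0.11 to 0.69, and the part of a different share of female cells in the other differences was not tested.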

How the data were processed

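LT-HSC RNA was hybridized to 1 Cy3 Agilent array per genotype, and the authors outsourced arrays and normalization to a contractor. The deposited scanner files hold processed intensity values per spot, background-subtracted within the array by Agilent Feature Extraction 11.5.1.1 per the submitters' processing notes, and not scaled between arrays. A deposited log2 table of the same arrays matched the values used here within 0.05, apart from a constant, for nearly all probes.

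Control and outlier spots (57 on WT, 75 on AtmsKO) were left out, and spots of a probe were averaged. The background flag of a probe was that of over 50% of its spots. Log2 intensity, scaled by the 75th percentile of non-control probes on its array, was compared (Python 3.11.15). Total RNA per cell is lost in scaling. RefSeq (GRCm38.p6, names and promoters only) named 43839 of 56605 probes by accession, symbol or older symbol, and the others kept the file's name. Probe positions are on mm9. Precision is limited by there being 1 array per genotype. Functions were tested on simulated data.

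Genes named were Atm and the p38 genes, the 10 largest differences in each direction among bright genes with a symbol, the 6 in each direction with the largest difference shared by all probes, up to 3 members per direction past 1.5-fold in each of 38 hand-written lists or else a leading member, and sex-linked genes. The results of 3 genes that this rule or a marker list names are not reported here. Others named in a list were chosen after their values were seen. The genes, lists, thresholds and alternatives were chosen with earlier results of these data known. Alternatives were other scalings, normexp background (limma 3.58.1, offset 50), the deposited log2 values, other signal thresholds, the median over probes and outlier spots kept.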

Additional observations from a re-analysis of the deposited data

How the results depend on the processing

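No paired analysis was possible because a genotype had 1 array, and for the same reason no replicate could be left out. The counts of genes past 2-fold and 1.5-fold were recomputed under 11 alternatives. Of 44 such counts 31 stayed within 1.5 times the main count and 13 moved. With normexp background the 2-fold higher count was 5 in place of 9. The signal threshold moved the counts most. At 200 units 42 genes were 2-fold higher, 51 lower, 258 were 1.5-fold higher and 230 lower. At 1000 units these counts were 2, 5, 9 and 17, and at 500 units on both arrays 1, 4, 16 and 16. Fewer genes enter at a higher threshold (2703 at 1000 units and 3929 at 500 on both, against 4363). The share of other probes in the direction of a gene at least 2-fold apart was 77.8% and moved to 100% at 500 units on both arrays, where it rests on 2 probes. Under quantile normalization 47 genes were 1.5-fold higher and 69 lower. No named gene past 1.5-fold changed sign in 5 alternatives of scaling or background. The largest move was that of Esr1, from 4.92 to 3.74 with normexp background, and Hsph1 stayed between -1.32 and -1.27. List medians relative to that of all bright genes were -0.15 to -0.13 for chaperones, -0.19 to -0.16 for immediate early genes, -0.31 to -0.27 for ageing genes and 0.17 to 0.19 for the respiratory chain. A constant shift of an array cancels in such relative medians, so an alternative that only shifts an array could not move them. The deposited values are nearly such a case, being those used here plus a constant for nearly all probes. The median of ageing genes without the 3 immediate early genes among them, an alternative chosen after seeing the data, was -0.06 in place of -0.28.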
